A study of Mus musculus with 10 samples.

Results

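The genes described here are epithelial producers of reactive oxygen and nitrogen species and the NF-kappaB defence genes that accompany them: Duox2, Duoxa2, Duoxa1, Nox1, Noxo1, Nos2, Nfkbiz, Tifa and Lcn2. They were found as every probe set that the platform's gene annotation assigns to 1 of these 9 symbols. Probe sets were present for 7 members, 9 probe sets in all, out of 18193 genes with a probe set. Duox2 and Nox1 had no probe set under their symbols and were not analysed here. All 7 measured members passed the filter on low values that left 13644 genes for testing. The list was chosen by an earlier reading of these arrays, with the knockout and control intensities of the 7 measured members known. That contrast is therefore a description of them and no p-value is given for it.

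Expression was measured on oligonucleotide arrays in B6xBALB F2 mice, the grandchildren of a cross between the B6 and BALB strains. The knockouts, CF knockout by title and CF-/- in the design text (cystic fibrosis, the disease of the chloride channel gene Cftr), fall by their titles into H (5 arrays) and L (3 arrays). The 2 controls carry the letter D in that place. The labels spell out none of these letters, and they give neither the mutant allele of Cftr nor the ages. The code of the controls (DFW and DMW) closes with W where that of the knockouts closes with CF, and the titles do not spell out W. The titles also hold the letter M (6 arrays) or F (4 arrays) and a mouse number in an upper (5 knockouts) or a lower range (3 knockouts and both controls). Nothing but these numbers says that the samples are separate animals, and if they are not, the p-values measure technical spread.

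Whole right lung is the source in the labels, while the series title speaks of an intestinal phenotype. Small intestine transcripts were bright on every array. The summed intensity of 9 small intestine markers lay between 21071 and 25081 over the knockouts and at 27578 and 29570 in the 2 controls, and that of 11 lung epithelium markers between 3784 and 12837 over the knockouts and at 4631 and 4791 in the controls. Cftr was lower in each of the 8 knockouts (28.1 ± 6.63, SD, n = 8) than in either control (134 ± 4.47, n = 2), a log2 change of -1.91 ± 0.16 (SE) with an adjusted p of 0.00528 in limma. Xist, the transcript of the inactive X chromosome, read at most 19.2 on the M arrays and at least 713 on the F arrays. Array medians lay between 18.4 and 18.9, so a probe set near 20 is close to the typical probe set. In tissue RNA, more RNA per cell and more cells of a type cannot be told apart.

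As background, DUOX2 and NOX1 are membrane enzymes that pass electrons from NADPH to oxygen at the surface of gut epithelium; DUOX2 releases hydrogen peroxide and NOX1 superoxide. DUOXA2 and DUOXA1 are the maturation factors that bring the DUOX enzymes out of the endoplasmic reticulum, and NOXO1 is the organizer subunit of NOX1. NOS2 is the inducible nitric oxide synthase. TIFA is an adaptor that is phosphorylated by the kinase ALPK1 when bacterial sugar metabolites enter the cell and that recruits TRAF6 to switch on NF-kappaB. Nfkbiz encodes IkappaB-zeta, an atypical nuclear IkappaB protein that is itself induced by NF-kappaB and is needed for a later wave of defence genes, among them Lcn2, whose product lipocalin 2 binds bacterial iron carriers.

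The promoters of Duoxa2 and Tifa are shown because all knockouts lay above both controls in these genes. RefSeq promoter windows of 300 bases, from 250 before to 50 after each annotated start (GRCm38.p6), were matched for 7 of the 9 members (not Nos2 and Nfkbiz), with 8 windows in all since Tifa has 2 starts. Duox2 and Duoxa2 are read outward from a shared interval on chromosome 2, their annotated starts 673 bases apart on opposite strands. The windows of Duoxa2 (plus strand, chr2:122298650-122298949) and of the downstream start of Tifa (plus strand, chr3:127790407-127790706) are shown 5′ to 3′, with capitals marking matches to the motifs searched.
Duoxa2: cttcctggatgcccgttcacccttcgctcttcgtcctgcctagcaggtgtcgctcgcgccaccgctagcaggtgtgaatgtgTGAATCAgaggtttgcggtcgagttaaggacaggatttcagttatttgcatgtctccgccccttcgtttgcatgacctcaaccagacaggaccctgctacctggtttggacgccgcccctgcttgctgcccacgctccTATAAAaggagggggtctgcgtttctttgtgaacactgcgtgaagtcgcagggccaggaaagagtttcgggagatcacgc
Tifa, downstream start: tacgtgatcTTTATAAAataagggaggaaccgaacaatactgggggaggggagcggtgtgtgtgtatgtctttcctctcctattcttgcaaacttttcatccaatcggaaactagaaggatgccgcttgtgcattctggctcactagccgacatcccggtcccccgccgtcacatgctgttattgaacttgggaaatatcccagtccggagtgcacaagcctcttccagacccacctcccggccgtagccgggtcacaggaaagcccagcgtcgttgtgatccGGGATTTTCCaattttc

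The search covered both strands for the kappaB consensus, TTCNNNGAA (bound by STAT factors), TGANTCA (AP-1) and TATAAA (the TATA box). Of all 32851 mouse promoter windows, 8.46% held the kappaB consensus, 8.3% TTCNNNGAA, 7.81% TGANTCA and 13.6% TATAAA. In Duoxa2 the capitals mark an AP-1 match, read on both strands, at positions -168 to -162 from the start, and a TATA box match at -30 to -25. In the downstream window of Tifa they mark a kappaB match, GGGATTTTCC, at positions 34 to 43, inside the transcribed part, and 2 overlapping TATAAA matches on opposite strands far upstream. The upstream window of Tifa, and those of Duox2, Duoxa1, Noxo1 and Lcn2, held none of the 4 motifs, and Nox1 held 1 kappaB match. A match is a description of letters in these windows and says nothing of binding.

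Among the members, Duoxa2 stood apart most between knockouts and controls. Duoxa2 read 78.4, 238.5, 242.5, 229.9 and 194.2 in the 5 knockout H samples, 200.1, 100.4 and 261.3 in the 3 knockout L samples, and 39.8 and 57.9 in the controls. All 8 knockouts lay above both controls, but knockout H replicate 1 and knockout L replicate 2 were far below the other 6. The means were 193 ± 67.9 in the knockouts and 48.9 ± 12.8 in the controls (SD, n = 8 and 2). The log2 difference adjusted for number range and letter was 1.97 ± 0.42 (SE), a 3.91-fold difference on the log2(intensity + 16) scale, which understates the difference of dim genes. In the lower number range alone, with 3 knockouts and both controls, it was 1.92.

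Duoxa1, the partner factor of DUOX1, did not separate the groups. Duoxa1 ranged from 17.4 to 23.5 in the knockouts and read 20.2 and 19.0 in the controls, close to the array medians throughout. The knockouts averaged 20.0 ± 2.25 and the controls 19.6 ± 0.85, and the adjusted log2 difference was 0.10 ± 0.06 (SE). The 2 maturation factors, whose genes are neighbours on chromosome 2, gave different values in the same samples; the difference between the 2 genes was not tested.

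Noxo1, the NOX1 organizer, was far above the array median and nearly level over the arrays. Noxo1 ranged from 323.4 to 394.3 in the knockouts and read 328.5 and 356.0 in the controls. The groups overlapped, with means of 356 ± 24.2 in the knockouts and 342 ± 19.5 in the controls. The adjusted log2 difference was 0.01 ± 0.10 (SE), and its sign changed in 3 of 20 other settings.

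Nos2 did not separate the groups. It read 32.1, 45.5, 28.2, 52.7 and 42.9 in knockout H, 37.6, 48.7 and 44.5 in knockout L, and 48.6 and 49.0 in the controls. Of the knockouts, 1 lay above both controls and 6 below, and the adjusted log2 difference was -0.08 ± 0.14 (SE).

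**Figure D1:**
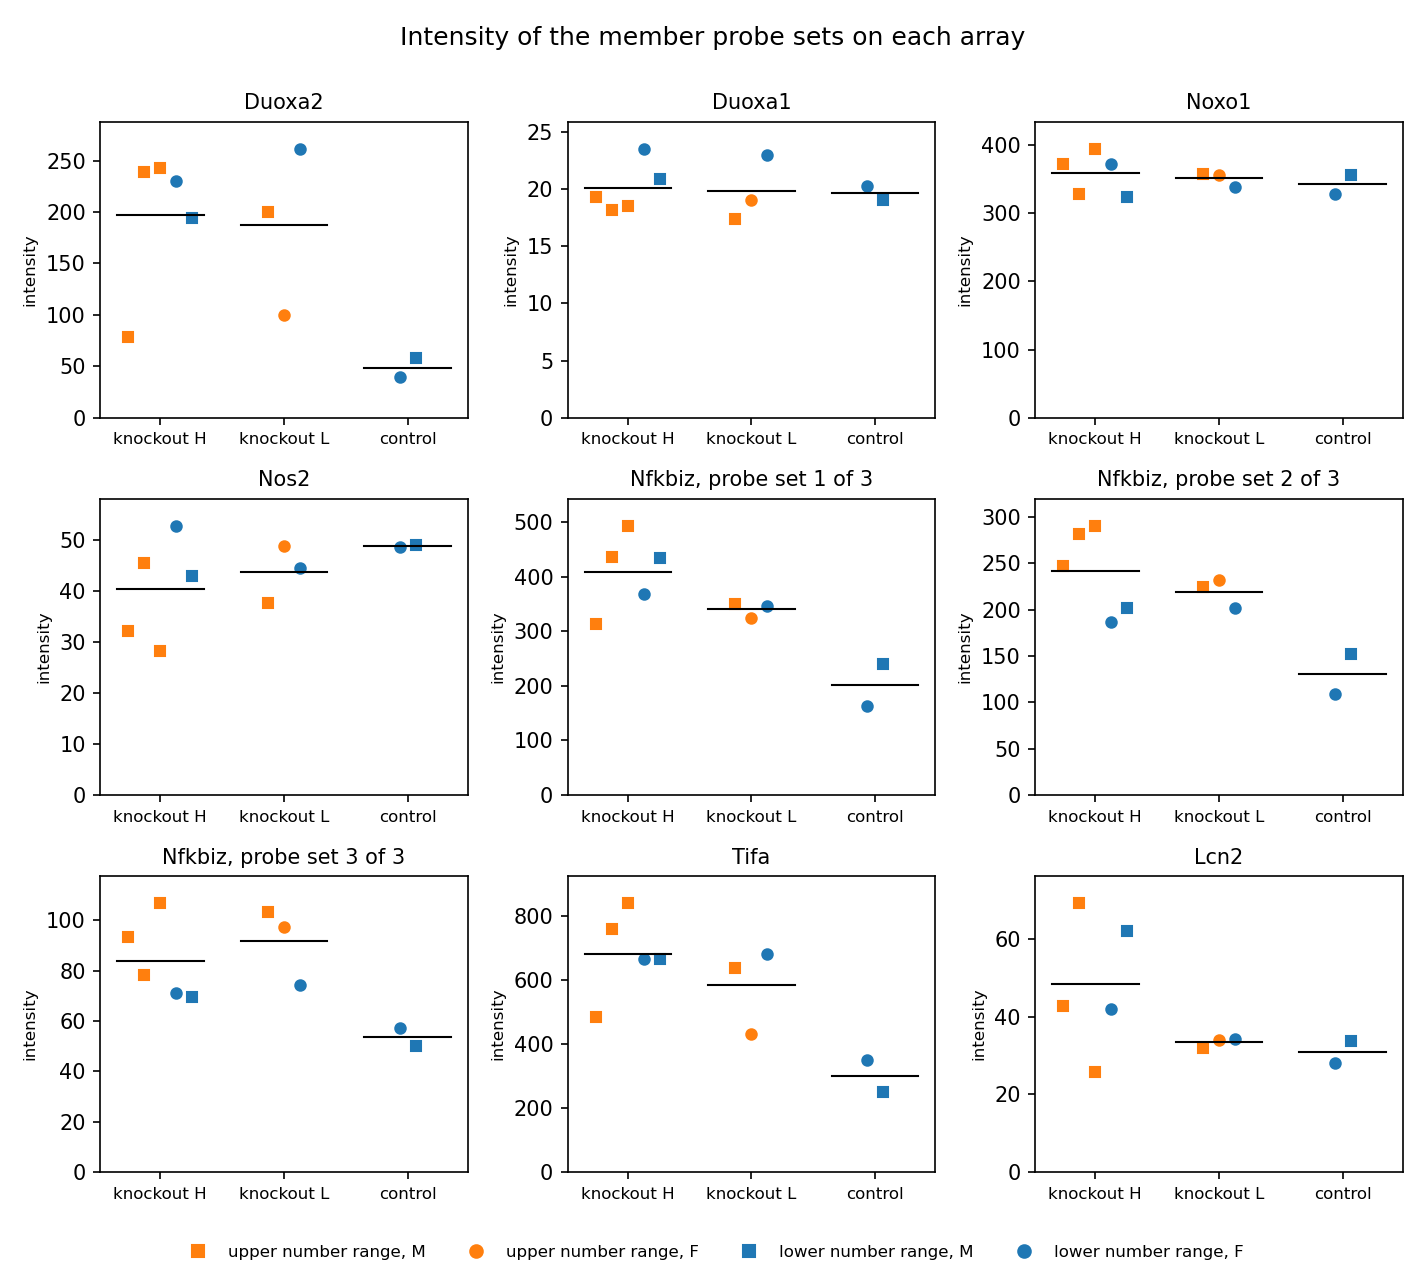
Intensity (linear, from 0) of the 9 member probe sets on each of the 10 arrays, by group; squares are M and circles F, orange the upper and blue the lower number range, and bars are group means. Every knockout lies above both controls for Duoxa2, Tifa and the 3 probe sets of Nfkbiz, and the groups overlap for Duoxa1, Noxo1, Nos2 and Lcn2.

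The transcripts of the NF-kappaB adaptor and of the nuclear IkappaB protein were both higher in every knockout than in either control. Tifa read 483.3, 758.4, 839.8, 663.3 and 663.7 in knockout H, 635.2, 431.1 and 681.3 in knockout L, and 348.0 and 248.5 in the controls. No knockout overlapped the controls, and the lowest knockouts were the same pair as for Duoxa2, H replicate 1 and L replicate 2. The means were 645 ± 134 in the knockouts and 298 ± 70.4 in the controls, with an adjusted log2 difference of 1.16 ± 0.27 (SE). That difference was 1.59 without control replicate 1 and 0.81 without control replicate 2, the widest move among the members.

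Nfkbiz had 3 probe sets, and all of them put the 8 knockouts above both controls. The brightest, used in the fit, read 312.5, 435.7, 493.01, 369.0 and 434.1 in knockout H, 350.2, 324.6 and 346.7 in knockout L, and 162.3 and 239.9 in the controls. The knockouts averaged 383 ± 63.7 and the controls 201 ± 54.9. The second averaged 233 ± 37.9 in the knockouts and 130 ± 30.9 in the controls, and the third 86.8 ± 15.2 and 53.6 ± 5.18. The probe sets gave one direction but different sizes, with adjusted log2 differences of 0.95 ± 0.17, 0.59 ± 0.12 and 0.32 ± 0.11 (SE).

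Lcn2, a gene that depends on IkappaB-zeta, gave overlapping groups. Lcn2 read 42.8, 69.3, 25.6, 42.0 and 62.0 in knockout H, 31.9, 33.9 and 34.2 in knockout L, and 28.0 and 33.8 in the controls. H replicate 3, which had the highest Nfkbiz, had the lowest Lcn2 of all arrays. The means were 42.7 ± 15.3 in the knockouts and 30.9 ± 4.08 in the controls, and the adjusted log2 difference was 0.43 ± 0.26 (SE). The spread in knockout H (48.4 ± 17.4, n = 5) was wider than in knockout L (33.4 ± 1.27, n = 3), and this difference in spread was not tested.

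The 2 arrays highest in Lcn2, H replicates 2 and 5, were also the highest in S100a9, a neutrophil calcium-binding protein (105.6 and 57.7), and in Scgb1a1, the secretoglobin of airway club cells (5610 and 5155). The controls read 13.4 and 15.3 for S100a9 and 2667 and 2684 for Scgb1a1. The log2 difference of Lcn2 was 0.22 with lung transcripts as a further covariate and -0.19 with neutrophil transcripts. The neutrophil covariate, the mean centred log2 level of the markers tested, was itself higher in all 8 knockouts (-0.12 to 0.31) than in the controls (-0.16 and -0.20). It therefore takes up part of the knockout contrast, and a fit with it cannot tell neutrophil content from that contrast. Of the 12 neutrophil markers 10 had a probe set and 8 were tested, with 0 past the threshold; summed, they gave 183 to 337 over the knockouts and 169 to 181 over the controls, and Mpo and Mmp8 lay below the filter. For the 3 members that separated the groups, the difference with the neutrophil covariate was 1.57 for Duoxa2, 0.79 for Nfkbiz and 0.84 for Tifa, and with the lung covariate 2.05, 0.96 and 1.20.

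**Figure D2:**
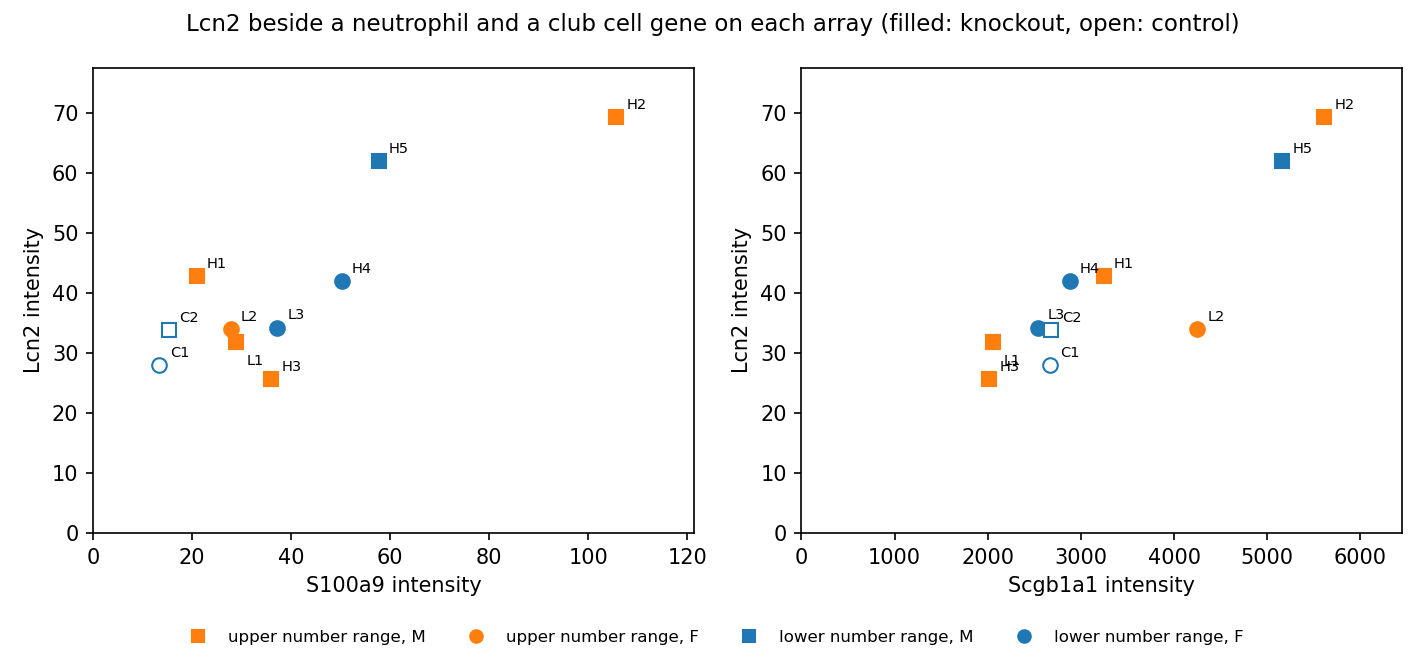
Lcn2 intensity on each array (vertical) against the intensity of S100a9 (left) and Scgb1a1 (right); filled symbols are knockouts, open symbols controls, and labels give group and replicate. Knockout H replicates 2 and 5 (H2 and H5) are the highest in all 3 genes, while Lcn2 of the other knockouts, from 25.6 to 42.8, spans the controls (C1 and C2).

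Some markers of other cell types were past the threshold between knockout and control, where 1.52% of all genes passed higher and 2.79% lower. The summed level of 6 crypt markers lay between 3106 and 3789 over the knockouts and at 1541 and 1621 in the 2 controls, and 3 of the 6 (Prom1, Cd44 and Olfm4) were past the threshold, higher. Of 9 small intestine markers 3 (Fabp2, Vil1 and Cdx2) were past it, lower. Of 8 macrophage and monocyte markers tested 2 (Cd14 and Mrc1) were past it, higher, while the summed level overlapped, at 1868 to 4001 in the knockouts and 2287 to 2822 in the controls. Of 7 goblet cell markers 1 (Agr2) was past it, higher. Of 4 Paneth cell markers 0 passed, with summed levels of 18400 to 23587 in the knockouts and 16885 to 19180 in the controls, but their mean centred log2 level was higher in all 8 knockouts (-0.16 to 0.31) than in the controls (-0.26 and -0.56). The part of crypt, villus, goblet, Paneth and macrophage transcripts in the values of Duoxa2, Tifa and Nfkbiz was not tested. Colon markers varied within groups: Car1, a carbonic anhydrase of large intestine, ran from 10.1 to 5827 in the knockouts, highest in L replicate 3, and read 32.7 and 2041 in the controls. With colon markers as a covariate the differences of Duoxa2, Nfkbiz and Tifa were 2.005, 0.96 and 1.23.

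In the fit of all genes, 3 of the 7 members (Duoxa2, Nfkbiz and Tifa) were past the threshold in the higher direction, beside 1.52% of the 13644 genes, and 0 in the lower direction, beside 2.79%. The same 3 had all 8 knockouts above both controls, as did 10% of genes. The median log2 difference was 0.43 over the 7 members and -0.0047 over all genes. The members were chosen with this contrast known, and nothing is read from these counts, the median or the counts over settings that follow. Of 20 alternative settings, Duoxa2 was past the threshold in 9, Nfkbiz in 14 and Tifa in 10, and none of the 3 was past it when 1 of the controls was left out or with the neutrophil covariate. No more than 2 controls carry the contrast: without control replicate 1 limma called 0 genes at all (1783 had an unadjusted p under 0.05).

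It is not recorded whether the choice of genes drew on the H and L values. It was tested whether the members differed between the H and L knockouts. None of the 7 did so past the threshold in limma, where 0% of the 13644 genes were called (303 had an unadjusted p under 0.05, the smallest among the members being 0.343). For none of the 7 members did the H and L samples fall apart without overlap, against 1.55% of genes. Duoxa2 averaged 197 ± 68.8 in knockout H and 187 ± 81.2 in knockout L, with a log2 difference of -0.14 and a 95% interval of -1.07 to 0.78, which leaves room for a difference of either sign. Tifa averaged 682 ± 133 in knockout H and 583 ± 133 in knockout L (0.20, interval -0.37 to 0.77). Nfkbiz averaged 409 ± 69.5 in knockout H and 341 ± 13.9 in knockout L (0.10, interval -0.28 to 0.47). The intervals were narrowest for the level genes, -0.10 to 0.18 for Duoxa1 and -0.17 to 0.25 for Noxo1. Those of Nos2 and Lcn2 were -0.35 to 0.29 and -0.31 to 0.78.

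Each knockout group was also set against the controls. The log2 differences of knockout H and of knockout L from the controls were 1.93 ± 0.45 and 2.07 ± 0.53 (SE) for Duoxa2. They were 1.22 ± 0.28 and 1.01 ± 0.33 for Tifa, and 0.98 ± 0.18 and 0.88 ± 0.21 for Nfkbiz. For Lcn2 they were 0.49 ± 0.27 and 0.25 ± 0.31. The comparisons share both control arrays.

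Between number ranges, which may mark a batch but are given only as mouse numbers, 0 of the 7 members were past the threshold, beside 0.3% of genes; the smallest unadjusted p was 0.0794. Duoxa1 was the 1 member whose upper and lower range knockouts did not overlap, at 17.4 to 19.3 and 20.9 to 23.5 (log2 difference -0.12, 95% interval -0.26 to 0.02), as in 11% of genes. Duoxa2 had the largest estimate, -0.66, with an interval of -1.59 to 0.26. The Nfkbiz probe sets disagreed here. The brightest gave -0.14. The second gave 0.27 (95% interval 0.003 to 0.54, limma adjusted p = 0.402) and the third 0.36 (0.12 to 0.60, limma adjusted p = 0.218), so both intervals left out 0. For these last, chosen after their values were seen, the upper range knockouts (225 to 290 and 78.2 to 107) lay wholly above the lower range ones (187 to 202 and 69.5 to 74.3).

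Between the letters M and F, 0 of 7 members were past the threshold, beside 0.022% of genes (0.0147% higher on the M arrays and 0.00733% lower), with a smallest unadjusted p of 0.109. That was Nfkbiz, at 378 ± 93.6 on the M and 301 ± 94.0 on the F arrays (log2 difference 0.28, 95% interval -0.08 to 0.65). Duoxa2 had an interval of -0.54 to 1.26 and Tifa one of -0.53 to 0.58. For none of the members did the M and F arrays fall apart without overlap, against 0.645% of genes.

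**Figure D3:**
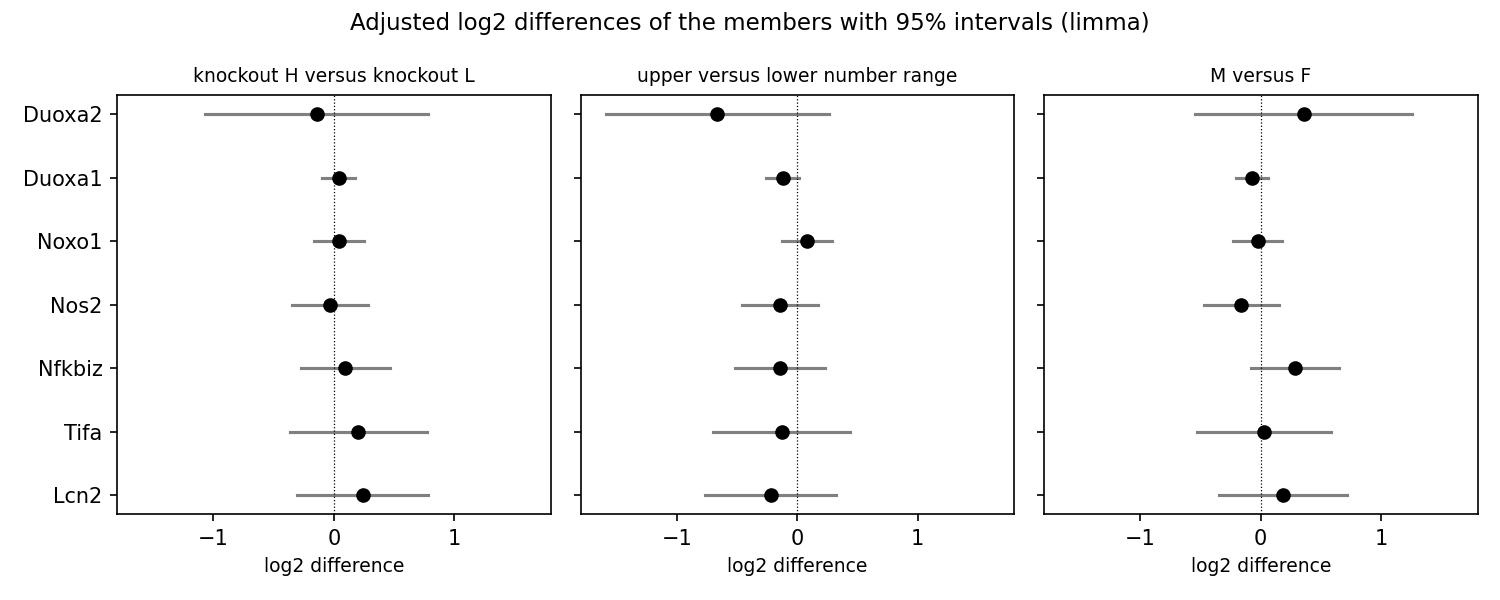
Adjusted log2 differences (horizontal, first group minus second) of the 7 measured members with 95% intervals from limma, for knockout H versus L, upper versus lower number range and M versus F. Every interval shown includes 0, and those of Duoxa2 are the widest. Nfkbiz is shown by its brightest probe set alone.

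How the members varied together among the knockouts was also tested. Over the 8 knockouts, with values centred within the number ranges, all 21 pairs of members were compared by exact permutation within ranges (720 arrangements, two-sided). The closest pair was Duoxa2 with Tifa, with a Pearson r of 0.92 (exact permutation p = 0.0222, adjusted p = 0.452) and a Spearman rho of 0.83 (p = 0.0278, adjusted p = 0.583). Without H replicate 1 and L replicate 2, the 2 arrays farthest from the median of Duoxa2, r was 0.62. Nfkbiz and Tifa followed with an r of 0.85 (exact permutation p = 0.0431, adjusted p = 0.452) and a rho of 0.84 (p = 0.0722, adjusted p = 0.758). Without H replicates 2 and 3, the 2 arrays farthest from the median of Nfkbiz, their r was 0.31. No pair passed after adjustment over the 21, and 2 had an unadjusted p under 0.05. Lcn2 had an r of 0.19 with Nfkbiz, of 0.04 with Tifa and of -0.06 with Duoxa2 (exact permutation p = 0.728, 0.949 and 0.913; adjusted p = 0.95 each), and a rho of 0.01, 0.00 and -0.32 (p = 1, 1 and 0.485).

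**Figure D4:**
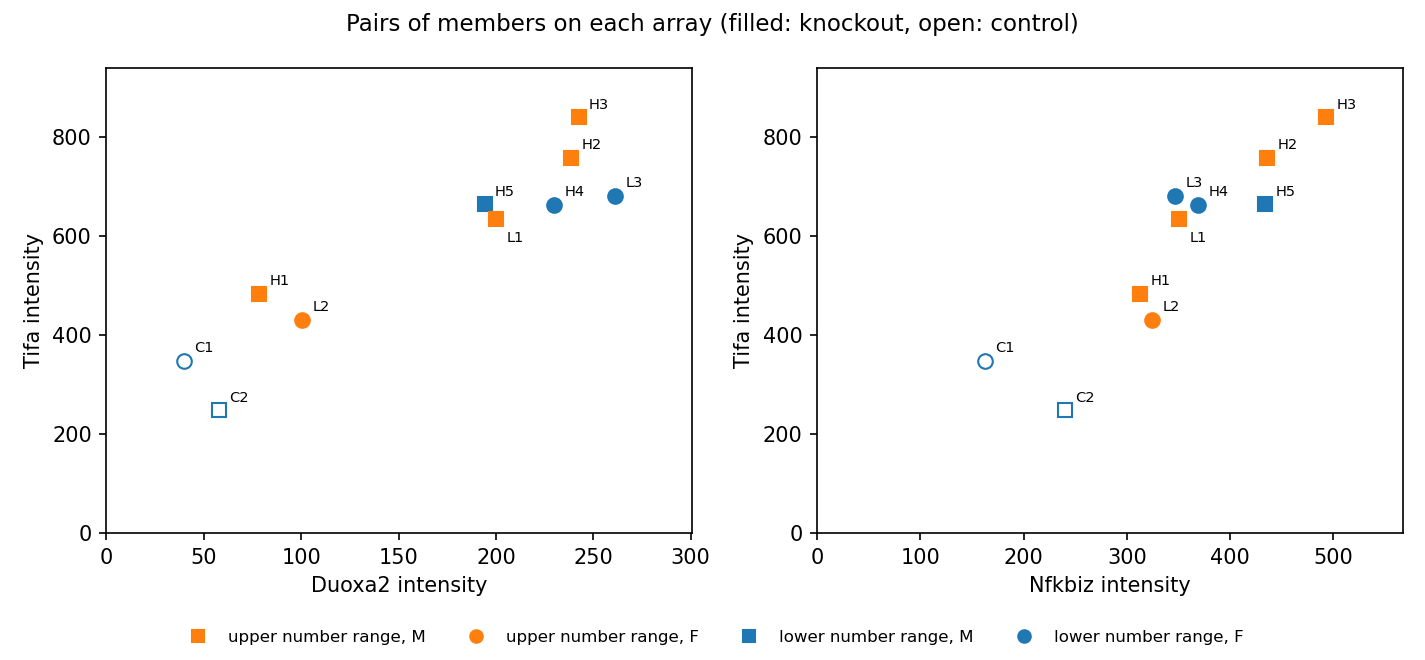
Tifa intensity (vertical) on each array against Duoxa2 (left) and the brightest Nfkbiz probe set (right); filled symbols are knockouts, open symbols controls, and labels give group and replicate. Knockout H replicate 1 and L replicate 2 lie between the controls and the other 6 knockouts in both panels.

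Likeness to Duoxa2 outside the members was taken without centring within number range, where Duoxa2 with Tifa had an r of 0.90. By Pearson r over the 8 knockouts, the genes most like Duoxa2 were Cep78 (0.99), Mob3c (0.96), Supt6 (0.96), Vmn2r26 (0.96) and Atf4 (0.94). These are the highest of 13644 genes over 8 arrays and carry no p-value. Their knockout ranges included the control mean (Cep78, Vmn2r26 and Atf4) or lay below it (Mob3c and Supt6). Atf4, a stress transcription factor, was 528 to 717 in the knockouts and averaged 704 in the controls. Mob3c was 28.8 to 51.2 in the knockouts and averaged 61.6 in the controls. Cep78 (16.7 to 24.7 in the knockouts) and Vmn2r26 (13.0 to 17.6) read near the array medians.

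Other genes of the oxidase and NF-kappaB pathways were taken from 8 lists with 105 genes, of which 90 had a probe set and 81 were tested between knockout and control. Of these 0 were past the threshold in the higher direction and 3 in the lower, 3.7% of those tested, beside 4.31% of all genes. The lists were chosen with earlier results of these data known, and no list was tested as a set. Of the 8 NADPH oxidase subunits tested 0 passed (median log2 difference 0.01, adjusted p at least 0.624, limma). DUOX1, the enzyme partner of DUOXA1, had a Duox1 reading of 14.6 ± 2.37 in the knockouts and 18.1 ± 0.85 in the controls, no higher than the array medians. Cybc1, a chaperone of the phagocyte oxidase, averaged 114 ± 8.53 and 122 ± 7.92 (log2 difference -0.08).

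On the list of peroxidases and other NO synthases 0 of 6 passed (median log2 difference -0.0019). Gpx2, the glutathione peroxidase of gut epithelium, averaged 5149 ± 717 in the knockouts and 3656 ± 868 in the controls, which is 0.60 ± 0.17 (SE) on the log2 scale and had an adjusted p of 0.0902 in limma. Cat, catalase, averaged 206 ± 57.0 in knockout and 378 ± 111 in control samples (-0.75 ± 0.31, limma adjusted p = 0.219). Gpx2 lay above both controls in 7 of 8 knockouts and Cat below both in 7 of 8. Gpx2 passed in 1 of 20 alternative settings and Cat in 2.

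NF-kappaB subunits, inhibitors and kinases had 11 of 14 negative differences (median -0.14, beside -0.0047 over all genes). Of the 14, 2 were past the threshold, lower, where 2.79% of all genes passed. Relb, a subunit of the alternative NF-kappaB arm, fell in the knockouts: it read 149.0, 114.9, 151.6, 149.8 and 139.1 in knockout H, 156.7, 194.4 and 153.8 in knockout L, and 280.6 and 231.6 in the controls. Its log2 difference was -0.77 ± 0.13 (SE, limma adjusted p = 0.0168), with all 8 knockouts below both controls, as in 11.7% of genes. Tnip1, which works with the deubiquitinase A20 to restrain NF-kappaB, fell to 264 ± 23.5 in the knockouts, against 369 ± 23.0 in control samples (-0.51 ± 0.11, limma adjusted p = 0.0377). The call of Relb was lost with the neutrophil covariate and without H replicate 4, L replicate 3 or either control (largest limma adjusted p = 0.171). That of Tnip1 was lost with a pseudocount of 1, with the neutrophil or colon covariate, and without H replicate 1 or 4, any L replicate or either control (largest limma adjusted p = 0.285).

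Among 9 genes of the TIFA arm, the kinases, ubiquitin ligases and adaptors that act with TIFA, 0 passed (median -0.06). Alpk1, the gene of the kinase that phosphorylates TIFA, had no probe set under its symbol and was not tested. Birc3, a ubiquitin ligase, averaged 188 ± 16.3 in knockout and 205 ± 22.9 in control samples (-0.22, limma adjusted p = 0.187), and Tab2, an adaptor of the kinase TAK1, 382 ± 37.1 and 328 ± 70.6 (0.21, limma adjusted p = 0.387).

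Of 12 pattern receptors and adaptors 0 passed (median 0.02). Tlr4, the lipopolysaccharide receptor, averaged 63.1 ± 16.5 in the knockouts and 23.8 ± 4.93 in the controls, with all 8 knockouts above both controls (0.99 ± 0.27, limma adjusted p = 0.0763). Tollip, an adaptor that dampens receptor signals, averaged 236 ± 32.7 and 324 ± 25.3 (-0.40 ± 0.16, limma adjusted p = 0.212), with all 8 below, as in 11.7% of genes. With its second probe set (66.7 ± 12.7 in the knockouts and 90.5 ± 13.0 in the controls) 7 of 8 lay below. Of 20 alternative settings, Tlr4 passed in 5 (smallest limma adjusted p = 0.0116, with lung transcripts as a covariate) and Tollip in 1 (0.0456 in limma, in the lower number range alone).

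Of 10 receptors and signalling genes of interleukins 17 and 22, 1 passed, lower, beside 2.79% of all genes. The list had 5 positive and 5 negative differences (median -0.03). The largest was that of Socs3, 1.25 ± 0.32 (SE, limma adjusted p = 0.0626), named here after its value was seen. Il17rc, a receptor subunit for interleukin 17A and 17F, fell: it read 528.5, 435.6, 528.6, 464.0 and 456.0 in knockout H, 462.7, 575.1 and 411.4 in knockout L, and 663.4 and 709.0 in the controls. The log2 difference was -0.62 ± 0.12 (SE, limma adjusted p = 0.0257). The call was lost as a mean with its second probe set, which averaged 8.67 ± 0.70 in the knockouts and 8.19 ± 0.60 in the controls, with the neutrophil covariate, and without H replicate 4 or 5, L replicate 3 or either control (largest limma adjusted p = 0.197). Of the upstream cytokines, 5 of 14 could be tested and 0 passed. Il33, an alarm cytokine of stromal and epithelial cells, averaged 48.8 ± 11.8 in knockout and 24.8 ± 6.32 in control samples (0.74 ± 0.21, limma adjusted p = 0.0884), and Il1b 39.0 ± 11.7 and 30.4 ± 4.63 (0.34, limma adjusted p = 0.476). Il33 passed in 4 of 20 alternative settings and Il1b in 0.

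The 17 epithelial defence targets tested had 13 positive differences (median 0.30, beside -0.0047 over all genes) and 0 past the threshold. Of the list, S100a8, S100a9 and Ltf also stand on the neutrophil list. Fut2, the fucosyltransferase that decorates surface glycans of gut epithelium, read 242.8, 90.1, 526.8, 326.0 and 321.0 in knockout H, 330.1, 202.2 and 502.4 in knockout L, and 75.7 and 79.1 in the controls. All 8 knockouts lay above both controls, as in 10% of genes. A second, dimmer probe set averaged 175 ± 84.0 in the knockouts and 48.1 ± 15.6 in the controls, with 7 of 8 knockouts above both. The log2 difference of Fut2 in the fit was 2.07 ± 0.56 (SE), as large as that of Duoxa2, and its limma adjusted p was 0.0737. It passed in 6 of 20 alternative settings: with lung transcripts (limma adjusted p = 0.00121) or neutrophil transcripts as a covariate, without covariates, in the lower range alone, and without H replicate 2 or 3. Reg3g, an antibacterial lectin, averaged 9758 ± 337 and 8044 ± 1479 (0.30, limma adjusted p = 0.11).

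**Figure D5:**
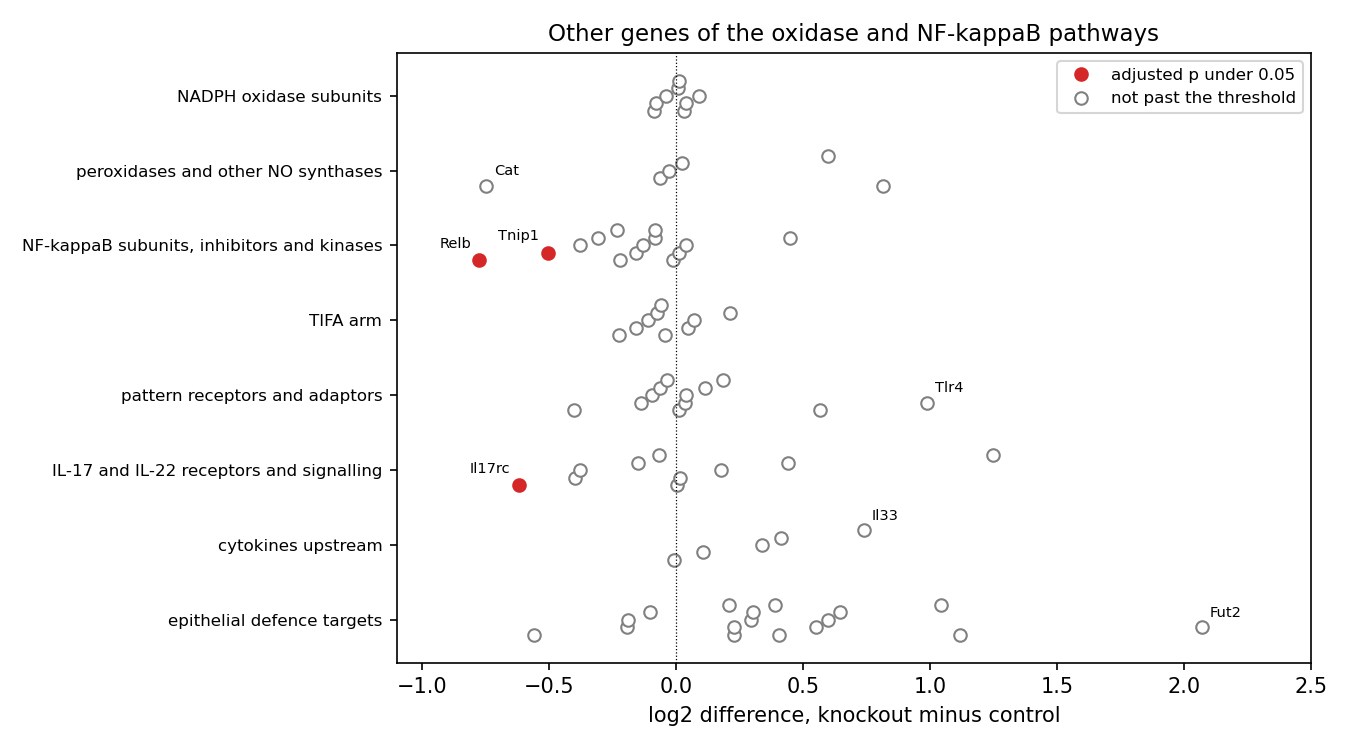
Log2 difference, knockout minus control, of the 81 genes tested on the 8 pathway lists (rows); filled points have an adjusted p under 0.05 in limma over all genes. The 3 filled points, Relb, Tnip1 and Il17rc, lie below 0, and Fut2 lies farthest above it, not past the threshold in this fit.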

How the data were processed

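The deposited table gave 1 intensity per probe set and array on a linear scale (lowest 3.41, highest 14284). The arrays already had nearly the same distribution, and how the authors normalized these intensities is not given in the sources used here. Of 45037 probe sets that were no controls, 34945 carried 1 gene symbol, 932 several and 9160 none in the platform annotation. Each of the 18193 genes was represented by its probe set with the highest mean. Genes at or below the 25th percentile of mean log2(intensity + 16) were left out, and 13644 were tested.

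Knockout and control were compared with limma 3.58.1 (R 4.3.3; lmFit and eBayes) on all 10 arrays, with number range and letter as covariates. H and L, the number ranges and the letters were compared in a fit with 3 groups. P-values were adjusted by Benjamini-Hochberg over all genes tested, with a threshold of 0.05. Intervals are 95% intervals of the fit, whose precision is limited by the number of arrays. The fit was tested on simulated data.

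The members and gene lists were chosen with earlier results of these data known. Named genes were the members, Cftr and Xist as checks, list genes past the threshold (at most 4 per list and comparison) or else the 2 with the smallest p, and the 5 genes most like Duoxa2. Alternatives were other pseudocounts, no filter, quantile normalization, the mean of all probe sets, lung or neutrophil transcripts as covariates, no covariates, the lower range alone and each array left out. Colon transcripts as a covariate were added after the data were seen.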

Additional observations from a re-analysis of the deposited data

Results flagged for a closer look

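Duox1 read 20.1 in knockout L replicate 3, apart from the other 7 knockouts, whose highest was 14.8; the gap was 0.67 of the whole range. It was the 1 outlying array among 50 groups of values examined, where chance flags about 1 in 20. Cybc1 went opposite ways in the letters: the ratio of the knockout mean to the control was 0.857 on the M arrays and 1.04 on the F arrays. With 1 control of each letter, the difference was not tested.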

How the results depend on the processing

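The count of genes called between knockout and control, 588 (207 higher, 381 lower), was 972 (442 higher, 530 lower) with lung transcripts as a covariate, 348 (152 higher, 196 lower) with neutrophil transcripts, 1366 (626 higher, 740 lower) without covariates and 1033 (433 higher, 600 lower) in the lower range alone. Leaving out 1 array gave 0 to 813 genes: 0 without control replicate 1, 57 without control replicate 2, 121 without H replicate 4, 191 without L replicate 3 and 263 without H replicate 5. The count between number ranges, 41, was 26 with a pseudocount of 1, 13 with the mean of all probe sets, 1 with the colon covariate, and 0 (without H replicate 5; 1236 at an unadjusted p under 0.05 in limma) to 44 with 1 array left out. Between letters, 3 genes became 5 with the mean of all probe sets. The causes were not tested. H against L gave 0 genes in limma in all 19 alternatives (188 to 800 at an unadjusted p under 0.05), and the member pairs gave 0 of 21 in all 12 (0 to 3 unadjusted). Over 20 alternatives the knockout difference was between 1.41 and 2.32 for Duoxa2, 0.62 and 1.07 for Nfkbiz, 0.81 and 1.59 for Tifa and -0.19 and 0.59 for Lcn2. No paired analysis was possible because each title has its own mouse number and no number is shared across groups. The 2 controls, both in the lower range, and the low intensity of Duoxa1 limit these values.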

Other observations

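Knockout L replicate 3 stood apart in several genes that were picked out after their values were seen. Lpo, lactoperoxidase, read 304 there and 15.1 to 27.9 on the other 9 arrays. Cyp2c55, a cytochrome P450 of large intestine, read 824 there, and 215 in control replicate 2. Tlr2, a receptor for bacterial lipoproteins, read 77.1 there, with the other knockouts at 25.9 to 44.2 and the controls at 21.1 and 19.8. Among the members the same array had the highest Duoxa2, 261.3, while its Tifa (681.3), Nfkbiz (346.7) and Lcn2 (34.2) lay within the range of the other knockouts.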
